A study of Mus musculus with 8 samples.

Results

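Mouse chromosomes 6, 10 and 13 were followed across 8 array comparative genomic hybridisations of liver DNA. They are the autosomes selected on the measured values for small shifts of the whole chromosome, with opposite signs between tumours on chromosome 10, so their levels below are a description and support nothing further. All probes that the array places on them were taken, 36079 of 232626 (13994 on chromosome 6, 11705 on chromosome 10 and 10380 on chromosome 13). The mice were male C57BL/6. The 6 hepatocellular carcinomas (HCC, tumours 1 to 6) came from FEAT transgenic mice of 16, 21, 20, 18.5, 22 and 12 months. FEAT is another name of the methyltransferase gene Mettl13; the labels do not give the promoter of the transgene or the share of tumour cells in a sample. Tumour 4 came with lung metastasis. A normal liver of a FEAT transgenic mouse of 13 months and a normal liver of a C57BL/6 mouse of 6 months make up the 2 non-tumour groups, with 1 array each. Every array set its sample, labelled with Cy3, against Cy5-labelled liver DNA of a wild-type male of 6 months, so all 8 comparisons share that kind of reference. Tumours 1 to 5 were taken at a greater age than either non-tumour liver, so age and tumour cannot be told apart in them.

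In array comparative genomic hybridisation the brightness of a probe in the test DNA is set against that in the reference DNA, and a log2 ratio of 0 means equal amounts. Gain or loss of a whole chromosome moves all its probes together by an amount that shrinks as cells without the change are mixed in, while a focal change moves only neighbouring probes. Mouse chromosomes are mosaics of human segments. Chromosome 6 carries stretches like human 7q, 3p and 12p, chromosome 10 stretches like human 6q, 12q, 10q and 19p, and chromosome 13 stretches like human 5q, 6p and 9q.

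Probe spacing was alike on the chromosomes, with a median distance between starts of 7.85, 8.00 and 7.97 kb on chromosomes 6, 10 and 13. The probes span 146.6, 127.0 and 113.7 Mb. Mean probe GC content was 36.4%, 36.5% and 36.5%, against 36.6% over all autosomes. The noise between neighbouring probes, as an SD of log2 ratios over the autosomes, ran from 0.221 in tumour 5 and the wild-type liver to 0.487 in tumour 4. Positions are those of the array's annotation, and the sources used here do not name its genome build.

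Each array was divided into segments of at least 5 neighbouring probes by penalised least squares, in which each added break carries a set penalty. A focal segment was called where a segment under 3 Mb had a mean log2 ratio at or beyond 0.2 in either direction. Such segments lay at only 2 places on these chromosomes. The probes of these places are shown because each result on focal change rests on a handful of short oligonucleotides. The first place, on chromosome 13, holds 19 probes from chr13:63317620-64369894, with a median spacing of 46.5 kb. Its probes are assigned by the array to AK019107, BC049692, C330014B19Rik and AK135299. The RefSeq gene table gives C330014B19Rik as an older name of Vmn2r-ps105, a vomeronasal receptor pseudogene; the other 3 are cDNA records. A pair of these probes, chr13:63855255-63855314 in C330014B19Rik and chr13:64355652-64355711 in AK135299, share a run of 27 bases, given in capitals, with the strand as the array file lists it.
C330014B19Rik probe 9 of 19: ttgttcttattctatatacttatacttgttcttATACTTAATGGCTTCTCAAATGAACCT
AK135299 probe 18 of 19: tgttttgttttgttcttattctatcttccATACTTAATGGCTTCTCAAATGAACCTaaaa
Probes that share a run of at least 20 bases with a probe elsewhere, on either strand, made up 0.301% of all probes on the array and 0.299% of those on chromosome 13, and they were 2 of the 19 here. The following pair carries the contrast within the locus: the level of probe 7 (chr13:63800804-63800863, BC049692) differed between tumours in sign, whereas that of probe 17 (chr13:64291904-64291963, C330014B19Rik) was high on each FEAT array.
BC049692 probe 7 of 19: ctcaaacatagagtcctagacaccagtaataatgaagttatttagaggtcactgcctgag
C330014B19Rik probe 17 of 19: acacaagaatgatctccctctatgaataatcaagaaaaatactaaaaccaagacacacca

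The second place is on chromosome 6, in an mRNA that the array lists as L35549 and describes as a Y-box binding protein. It holds 5 probes, chr6:47979599-47985795, of which the middle 3 lie within chr6:47983819-47984027 and carried the signal.
L35549 probe 2 of 5: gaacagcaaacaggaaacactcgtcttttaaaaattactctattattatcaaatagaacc
L35549 probe 3 of 5: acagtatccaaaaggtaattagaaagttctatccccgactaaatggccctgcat
L35549 probe 4 of 5: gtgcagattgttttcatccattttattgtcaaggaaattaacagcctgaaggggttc
None of the 5 shares a run of 20 bases with a distant probe of the array.

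On chromosome 10, the mean log2 ratio was 0.048, 0.082, 0.042, 0.040, -0.104 and -0.004 in tumours 1 to 6, 0.001 in FEAT normal liver and 0.023 in wild-type liver. Tumour 2 had the highest level and tumour 5 the lowest, and tumours 1 to 4 lay above both non-tumour livers while tumours 5 and 6 lay below both. This order depends on the measure: centred on the mode of the autosomal probes, chromosome 10 stood at 0.140 in tumour 3 and 0.132 in tumour 4, above 0.114 in tumour 2, and by medians of probes tumours 3 and 4 stood at -0.0016 and -0.0068, below both non-tumour livers. Chromosome 6 stood at 0.053, 0.031, 0.045, -0.004, -0.081 and -0.009 in tumours 1 to 6, 0.005 in FEAT normal liver and 0.028 in wild-type liver. Chromosome 13 stood at 0.041, 0.013, 0.044, -0.027, -0.106 and 0.003, with 0.006 and 0.023 in normal livers of the FEAT and wild-type mice. Tumour 5 was thus the lowest array on each chromosome. Over the 6 tumours the mean was 0.006 ± 0.050 on chromosome 6, 0.018 ± 0.065 on chromosome 10 and -0.005 ± 0.056 on chromosome 13 (SD, n = 6).

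The mean of a chromosome depends on where an array is centred. Centred on the autosomal median, the middle of the 19 autosomes had a mean log2 ratio between -0.004 (tumour 6) and 0.045 (tumour 3), so levels were also set against it. In tumour 3, where 0 autosomes had a mean below 0, the levels of chromosomes 6, 10 and 13 then differed from the middle autosome by 0.000, -0.003 and -0.001. Relative to the middle autosome, chromosomes 6, 10 and 13 of tumour 5 lay at -0.118, -0.141 and -0.143, a change in the measured ratio of -7.86%, -9.30% and -9.45%. Chromosome 10 of tumour 2 lay at 0.060, a ratio 4.27% above that of the middle autosome. Tumour 4 had chromosome 13 at -0.053 and chromosome 6 at -0.030, against 0.014 on its chromosome 10. The same measure ran from -0.002 to 0.009 in the 2 non-tumour livers. These sizes are below the threshold of 0.2 at which a segment was called, and they are the values that selected the chromosomes.

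**Figure D1:**
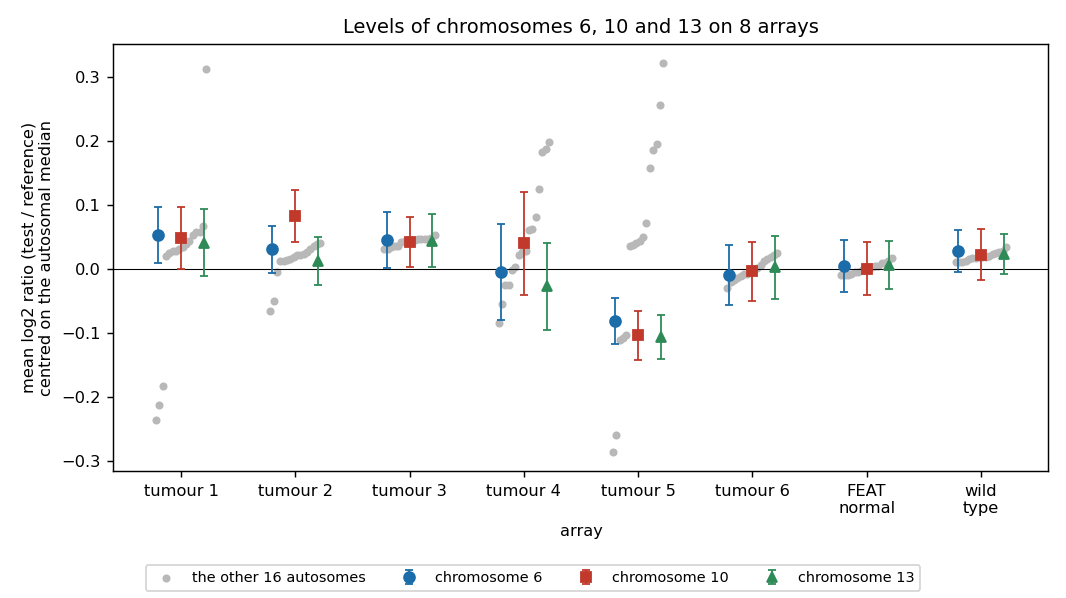
Mean log2 ratio of sample to reference, after centring, of chromosomes 6 (blue circles), 10 (red squares) and 13 (green triangles) on each of the 8 arrays; grey points are the other 16 autosomes and bars are the SD of 1 Mb bins. The 3 chromosomes of tumour 5 sit between -0.106 and -0.081, below every other array, and chromosome 10 of tumour 2 sits at 0.082.

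The shifts in tumour 5 ran along whole chromosomes. Bins of 1 Mb with at least 20 probes had a mean below 0 in 144 of 147 on chromosome 6, 126 of 127 on chromosome 10 and 113 of 114 on chromosome 13. In the wild-type liver, 24, 27 and 23 of these bins lay below 0. Of single probes on tumour 5, 67.2%, 70.5% and 71.2% had a ratio below 0 on the 3 chromosomes, against 48.6%, 50.3% and 49.7% on the wild-type array. Chromosome 10 of tumour 2 ran the other way, with 125 of 127 bins above 0 and 39.2% of its probes below 0. On that chromosome, 113 bins lay above 0 in tumour 1, 109 in tumour 3 and 100 in the wild-type liver.

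When each chromosome was divided into 10 blocks of equal probe number, all 10 blocks lay below 0 in tumour 5 on each chromosome. Their ranges were -0.101 to -0.060 on chromosome 6, -0.132 to -0.078 on chromosome 10 and -0.137 to -0.089 on chromosome 13. On chromosome 10 of tumour 2 all 10 blocks lay above 0, from 0.050 to 0.107. This was not particular to tumour 2. All 10 blocks of chromosome 10 also lay above 0 in tumour 1 (0.018 to 0.074), tumour 3 (0.027 to 0.062) and the wild-type liver (0.001 to 0.044). Tumour 4 had the widest spread of blocks on each chromosome, from -0.041 to 0.10 on chromosome 10.

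**Figure D2:**
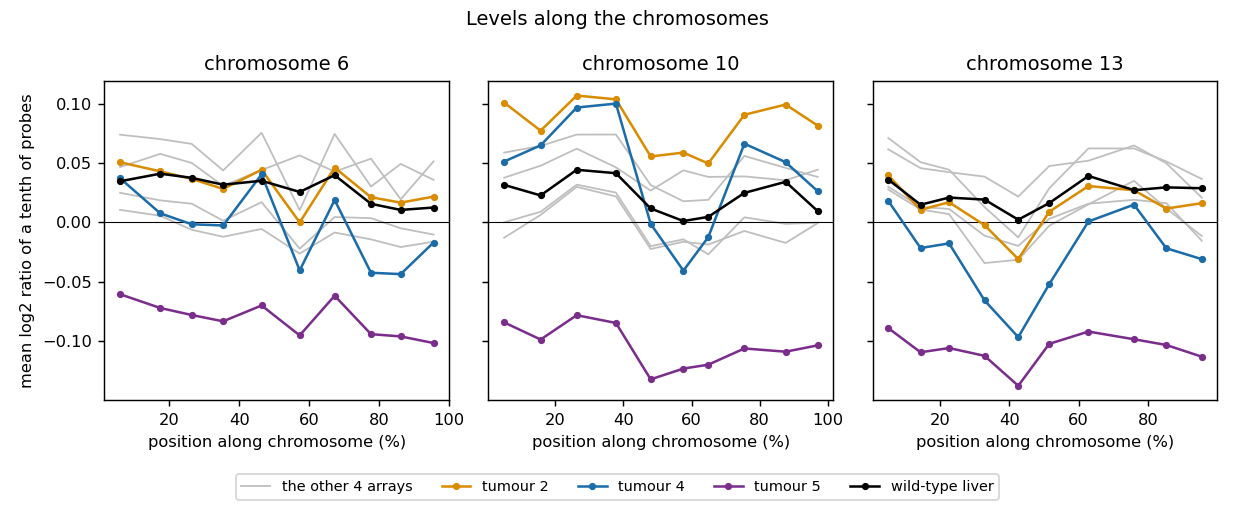
Mean log2 ratio of 10 blocks of equal probe number along chromosomes 6, 10 and 13 (position as a percentage of the probed length), 1 line per array. Tumour 5 (purple) stays below 0 throughout. Tumour 2 (orange) stays above 0 throughout chromosome 10, as do tumour 1, tumour 3 and the wild-type liver (black). The middle of chromosome 10 is lower than its ends on most arrays.

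In tumour 5 the 19 autosomes fell at distinct levels, and chromosomes 6, 10 and 13 shared one with chromosomes 4, 12 and 18. In order, chromosomes 4, 12, 13, 10, 18 and 6 had means of -0.111, -0.107, -0.106, -0.104, -0.103 and -0.081. Below them lay chromosomes 7 and 9 at -0.260 and -0.286, a gap of 0.149. Above them came chromosome 11 at 0.037, a gap of 0.118. Among the 3 chromosomes, 10 and 13 differed by 0.002 (SE 0.005 from the bins), which is within that error, while chromosome 6 lay 0.023 (SE 0.005) above chromosome 10 and 0.025 (SE 0.004) above chromosome 13. These errors describe the spread of bins within 1 array, not replicate tumours.

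Tumour 2 had no such series of levels. Chromosome 10 was its highest autosome, 0.042 above chromosome 1 at 0.041, and chromosomes 16 and 19 were its lowest, at -0.066 and -0.051. Chromosome 10 lay 0.051 (SE 0.005) above chromosome 6 and 0.069 (SE 0.005) above chromosome 13 in this tumour. A similar order was seen in tumour 4, whose chromosome 10 lay 0.044 (SE 0.009) above chromosome 6 and 0.067 (SE 0.010) above chromosome 13. In tumours 1, 3 and 6 and both non-tumour livers, the differences between the 3 chromosomes ran from -0.012 to 0.012.

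**Figure D3:**
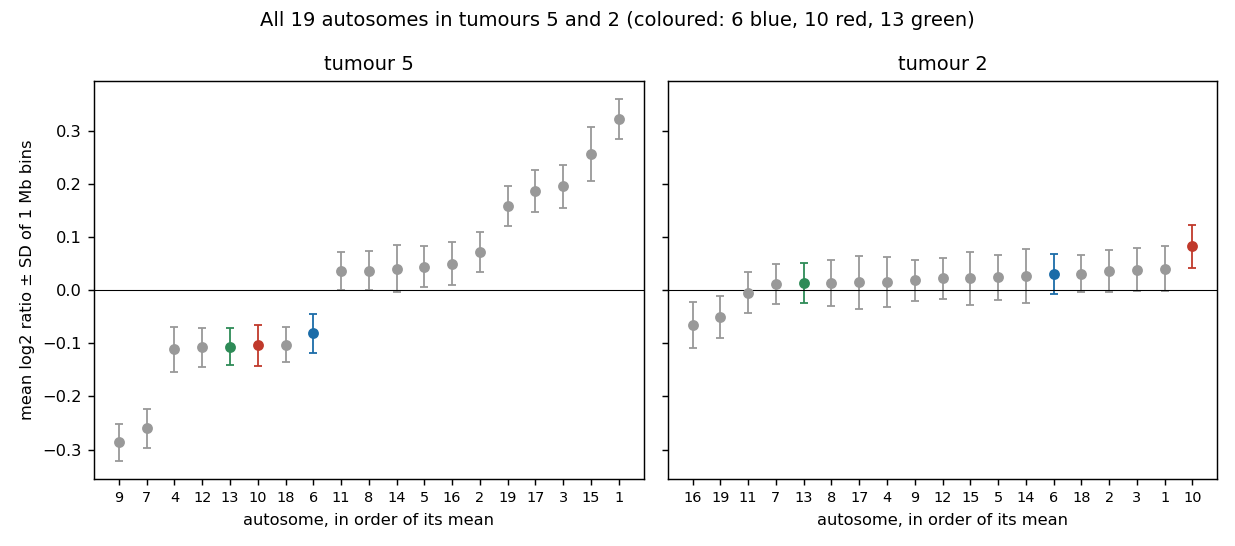
Mean log2 ratio of all 19 autosomes in tumours 5 and 2, in order of the mean, with the SD of 1 Mb bins as bars; chromosomes 6 (blue), 10 (red) and 13 (green) are coloured. In tumour 5 the 3 chromosomes lie in a step of 6 autosomes between -0.111 and -0.081, and in tumour 2 chromosome 10 at 0.082 is the highest.

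The comparison of tumours with non-tumour livers asks whether HCC of the transgenic mice gained or lost DNA. The 6 tumours minus the 2 non-tumour livers gave -0.011 (SE 0.039) on chromosome 6, 0.006 (SE 0.048) on chromosome 10 and -0.020 (SE 0.043) on chromosome 13. These are the levels that selected the chromosomes, with opposite signs between tumours on chromosome 10, so the differences are given as a description without a p-value. Over the whole array, 0 of 21 chromosomes passed an adjusted p of 0.05 in limma (0%), and 0 had an unadjusted p under 0.05. Among 2523 bins of 1 Mb, 0 passed in limma (0%), while the unadjusted p was under 0.05 for 8. None of those 8 (0 of 388 bins) lay on chromosomes 6, 10 or 13. Nothing is read from these counts about the 3 chromosomes. Leaving out tumour 5 turned the difference of chromosome 6 to 0.006, and leaving out tumour 1 or tumour 2 turned that of chromosome 10 to -0.00028 or -0.0072. Without tumour 5 the difference of chromosome 13 was -8.7e-05, against -0.020 with it. The design holds 1 FEAT and 1 wild-type normal liver, and the arrays are the only measure of spread.

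The level within a chromosome was compared between its proximal and distal parts, which the choice of chromosomes did not use. The distal minus the proximal part, divided at the middle probe, averaged -0.020 ± 0.013 on chromosome 6, -0.020 ± 0.014 on chromosome 10 and 0.012 ± 0.005 on chromosome 13 in the tumours (SD, n = 6). The 2 non-tumour livers averaged -0.018, -0.016 and 0.006. The differences between the groups were -0.0017 (SE 0.0098), -0.0038 (SE 0.0100) and 0.0060 (SE 0.0067), each with an adjusted p of 0.980 in limma, and 0 of 19 autosomes passed (0%; 0 with an unadjusted p under 0.05). The slope along each chromosome thus had the same sign in the mean of both groups.

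Probes that the array assigns to a gene or cDNA make up 69.4%, 67.8% and 65.3% of those on chromosomes 6, 10 and 13. Their mean minus that of the other probes was -0.0037 ± 0.0097, -0.0066 ± 0.0144 and 0.0045 ± 0.0115 in the tumours (SD, n = 6). Against the non-tumour livers this differed by -0.0003, 0.0045 and 0.0039 (SE 0.0110 each), with an adjusted p of 0.981 in limma for each, and 0 of 19 autosomes passed (0%; 0 with an unadjusted p under 0.05).

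The ups and downs along a chromosome were shared by the arrays to differing degrees. Over the 1 Mb bins of a chromosome, all 28 pairs of arrays correlated above 0, with a median Pearson r of 0.588 on chromosome 6 (147 bins), 0.667 on chromosome 10 (127 bins) and 0.520 on chromosome 13 (114 bins). The range of r was 0.082 to 0.836, 0.178 to 0.778 and 0.259 to 0.762 on these chromosomes. The lowest pair held tumour 3 each time, with tumour 1, tumour 2 and tumour 5 in turn. The bins share probes, base composition and the kind of reference DNA. Bin level also went with the GC content of the surrounding probes: r was -0.649 on chromosome 10 of tumour 4, -0.599 in tumour 2 and -0.414 in the wild-type liver, but -0.038 in tumour 3. After correction for GC the median r between arrays was 0.542, 0.577 and 0.468. Chromosome 10 then stood at 0.082 in tumour 2 and -0.104 in tumour 5, as before. The correction removes only the part tied to GC, and mean probe GC was 36.5% on chromosome 10 against 36.6% over all autosomes. It could therefore move the level of the whole chromosome little.

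Called segments covered few probes of these chromosomes. The chromosomes were selected for small shifts of the whole chromosome, so long segments on them were unlikely to reach the calling threshold. Shares below those of all autosomes in tumours 1, 4 and 5 therefore restate that choice and support nothing further. Over all autosomes, the share of probes in called segments was 14.3% in tumour 1, 0.0331% in tumour 2, 0.0233% in tumour 3, 5.58% in tumour 4, 25.1% in tumour 5, 0.0298% in tumour 6, 0.0324% in FEAT normal liver and 0.0179% in wild-type liver. On chromosomes 6, 10 and 13 the shares were 0.0224% (8 probes) in tumour 1, 0.0448% (16 probes) in tumour 5, 0.0475% (17 probes) in tumour 6 and 0.0139% (5 probes) in the FEAT normal liver. Tumours 2, 3 and 4 and the wild-type liver had 0 called segments there. Chromosome 10 had none on any array. At a threshold of 0.1 the shares on the 3 chromosomes were 60.9% (21729 probes) in tumour 5, 1.64% in tumour 4 and 1.33% in tumour 1. No share over all autosomes was computed at 0.1, so these shares are not read as particular to the 3 chromosomes. In tumour 5, chromosomes 4, 12 and 18 also had means of -0.111, -0.107 and -0.103. Chromosomes 7 and 9 stood lower, at -0.260 and -0.286.

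At the chromosome 13 place shown above, tumour 1 had a called loss over 8 probes at -0.64, and tumours 5 and 6 had called gains over 16 and 17 probes at 0.58 and 0.71. The median of all 19 probes was 0.06, 0.27, 0.05, -0.41, 0.62 and 0.73 in tumours 1 to 6, 0.14 in FEAT normal liver and -0.02 in wild-type liver. Flanking probes, 20 on each side, averaged between -0.12 and 0.03. By these medians tumours 5 and 6 were high and tumour 4 low. Means of the 19 probes were -0.30, 0.23, -0.18, -0.30, 0.50 and 0.63 in tumours 1 to 6, so tumour 1 was then as low as tumour 4. The place was found through calls in these same tumours, so its wide spread beside the flanks is a description.

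Within this place the probes did not move as a block. BC049692 probe 7 read -0.92, 0.01, -1.05, -1.24, 0.47 and 0.73 in tumours 1 to 6, 0.14 in FEAT normal liver and -0.39 in wild-type liver. Tumours 1, 3 and 4 were low and tumours 5 and 6 high. C330014B19Rik probe 17 read 0.76, 1.01, 0.60, 0.69, 1.13 and 0.94 in the tumours, 0.86 in FEAT normal liver and 0.14 in wild-type liver. All 7 FEAT arrays were above the wild-type array at this probe. The pair that share 27 bases also differed: probe 9 read -0.84, -1.40, -0.23 and 0.14 in tumours 2, 3, 5 and 6 with no value in tumours 1 and 4, whereas probe 18 read 0.27, 0.66, 0.06, 0.24, 0.67 and 1.19 in tumours 1 to 6. In FEAT normal liver the ratio was -0.93 at probe 9 and 0.84 at probe 18, and in wild-type liver it was 0.09 and -0.03. Mean probe GC content at this place was 32.4%, below that of the chromosome.

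At the L35549 place on chromosome 6, the FEAT normal liver alone had a called loss. Its probes 2, 3 and 4 read -1.67, -1.85 and -2.10, while probes 1 and 5 on either side read -0.02 and 0.10. Probe 3 read 0.06, 0.16, 0.04, -0.22, -0.02 and -0.19 in tumours 1 to 6 and -0.08 in the wild-type liver. The FEAT normal liver was thus far below each other array over these 3 probes. With 1 FEAT normal liver, the loss has no replicate.

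**Figure D4:**
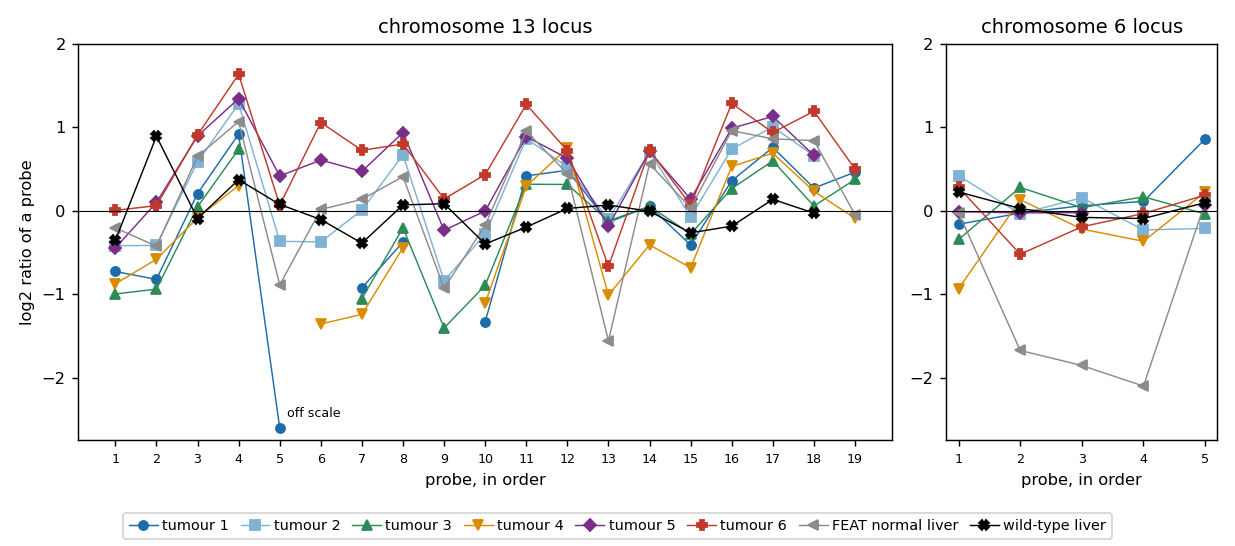
Log2 ratio of each probe at the 2 focal places, in order along the chromosome, 1 line per array; missing values break a line and the point marked off scale is tumour 1 at -4.27. On chromosome 13 tumours 5 and 6 run highest from probe 6 to probe 8, and on chromosome 6 the FEAT normal liver alone falls to -2.10 at probe 4.

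Longer segments stayed below the threshold of 0.2, which the choice of chromosomes with small shifts made likely. On chromosome 10, tumour 4 had a segment of 587 probes, chr10:79367419-83043727, at -0.14, and tumour 1 a segment of 611 probes, chr10:79349985-83208488, at -0.04, with surrounding GC contents of 38.4% and 38.3%. On chromosome 6, tumour 1 had a segment of 465 probes, chr6:101768055-108255405, at 0.12. The wild-type liver had a segment over the chromosome 10 stretch, chr10:77141253-84442997, at -0.03. In tumour 5, chromosome 10 fell into 2 segments at -0.087 and -0.118 and chromosome 6 into 2 at -0.075 and -0.10. Tumours 3 and 6 and the FEAT normal liver had 1 segment over the whole of chromosome 10.

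Single probes that set the FEAT mice apart were also counted, by a rule chosen after values were seen: a ratio at or beyond 0.5 in one direction on all 7 FEAT arrays and within 0.25 of 0 on the wild-type array. On the whole array 57 of 225482 probes were high in this way (0.0253%) and 55 were low (0.0244%). Of 35203 probes on chromosomes 6, 10 and 13, 7 were high (0.0199%) and 6 low (0.0170%), shares near those of the array. The high ones include a probe in Mug1, which encodes a plasma protease inhibitor made by the liver, with 0.53 to 1.69 on the FEAT arrays and -0.21 on the wild-type array. The probes beside it averaged 0.30 and 0.63 over the FEAT arrays, so they were high too. A probe in Golph2 (now Golm1), a Golgi membrane protein, read 0.59 to 1.80 and -0.04, with 0.15 and 0.05 beside it. The lowest mean belonged to a probe in Nalp4f (now Nlrp4f, an NLR family gene) at chr13:63043152-63043211, with -1.36 to -0.83 on the FEAT arrays and -0.09 on the wild-type array.
Nalp4f probe: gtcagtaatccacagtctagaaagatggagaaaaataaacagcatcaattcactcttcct
Its neighbours averaged 0.01 and 0.07 over the FEAT arrays, so the low value stood on this probe alone.

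Genes known for growth control or for work in hepatocytes were read through windows of 0.5 Mb on either side. Of 169 listed genes, 155 were found on the array, 8 of them under an older name. In tumour 5, the window level was at or below -0.05 for 47 of 49 genes on chromosome 6, 59 of 59 on chromosome 10 and 47 of 47 on chromosome 13, against 40.7% of the windows of all 24939 autosomal genes. In tumour 2 the window level was at or above 0.05 for 40 of 59 genes on chromosome 10, 3 of 49 on chromosome 6 and 7 of 47 on chromosome 13, against 17.6% of all autosomal genes. These counts restate the levels that selected the chromosomes and support nothing further.

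Median windows by role lay within 0.02 of the median over all named genes of the chromosome in tumour 5. In tumour 5 the median window of growth genes (24), suppressor genes (24) and hepatocyte genes (11) on chromosome 10 was -0.122, -0.131 and -0.120, beside -0.114 over all 1245 named genes there. On chromosome 6 the medians were -0.097 (20 growth genes), -0.091 (17 suppressor genes) and -0.105 (12 hepatocyte genes), beside -0.091 over all 1425. Chromosome 13 gave -0.112 (22), -0.110 (15) and -0.107 (10), beside -0.111 over all 997. In tumour 2 the 3 medians on chromosome 10 were 0.069, 0.057 and 0.063, beside 0.069 over all genes of that chromosome.

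**Figure D5:**
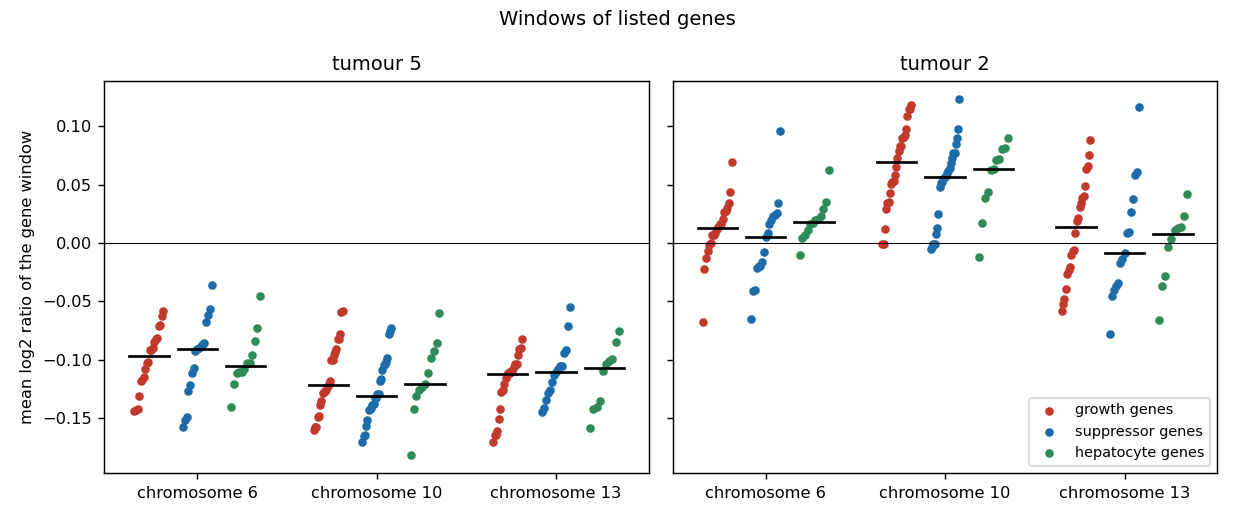
Mean log2 ratio of the window of each listed gene in tumours 5 and 2, by chromosome and role; black bars are medians. All genes on chromosomes 10 and 13 lie below -0.05 in tumour 5, and on chromosome 10 of tumour 2 the 3 medians lie at 0.069, 0.057 and 0.063.

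Genes whose windows departed most from their own chromosome, averaged over the tumours, departed in the same direction in both non-tumour livers, except Pon1, Kitl and Prdm1, which turned sign in the wild-type liver. On chromosome 6 the lowest were Rad18 (-0.079 ± 0.032), a ubiquitin ligase of DNA damage tolerance, Xpc (-0.071 ± 0.052), a sensor of nucleotide excision repair, and Chd4 (-0.065 ± 0.038), an ATPase of the NuRD complex (departure in log2, SD, n = 6). Rad18 departed by -0.072 in the FEAT normal and -0.039 in the wild-type liver, and by -0.046 in the tumours with a window of 1 Mb on either side. Chd4 stood at -0.034 after GC correction. The highest were the transcription factor gene Foxp2 (0.074 ± 0.029), Pon1 (0.064 ± 0.037), a paraoxonase secreted by hepatocytes, and the spindle checkpoint gene Mad2l1 (0.043 ± 0.027). With the 1 Mb window Pon1 stood at 0.007, and after GC correction Mad2l1 stood at 0.002.

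On chromosome 10 the lowest were Ddit4 (-0.084 ± 0.047), an inhibitor of mTORC1 signalling, Txnrd1 (-0.079 ± 0.021), a thioredoxin reductase, and Map2k2 (-0.078 ± 0.080), the kinase MEK2. Map2k2 moved to 0.022 after GC correction, in a window of 39.1% GC. The highest were the connexin gene Gja1 (0.051 ± 0.034), the Kit ligand gene Kitl (0.046 ± 0.018) and the transcriptional repressor gene Prdm1 (0.035 ± 0.023). Gja1 stood at 0.026 and Kitl at 0.023 after GC correction. With the 1 Mb window Kitl stood at -0.004 and Prdm1 at -0.026, so their sign depended on the window.

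The human 19p genes of chromosome 10 (Map2k2, Gna11, Tcf3, Stk11, Gadd45b, Dapk3, Mbd3 and Gamt) lie in the GC-rich stretch named above. Their median window was -0.053, -0.001, 0.060, -0.161, -0.138 and -0.043 in tumours 1 to 6, while FEAT normal liver had -0.10 and the wild-type liver -0.038. Stk11, which encodes the kinase LKB1, read -0.052, -0.004, 0.057, -0.159, -0.141 and -0.043 in tumours 1 to 6, -0.070 in FEAT normal liver and -0.048 in wild-type liver. Tumour 3 was the only array above 0 at Stk11, and GC content was also least tied to its bin levels. After GC correction the departure of all 8 genes from their chromosome, averaged over the tumours, turned sign, from between -0.078 and -0.057 to between 0.020 and 0.036. Stk11 went from -0.075 to 0.024, so the low level of these genes depended on the GC correction. The 17 human 6q genes had a median of 0.077 in tumour 2 and -0.095 in tumour 5.

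On chromosome 13 the lowest were Gadd45g (-0.074 ± 0.025), a stress response gene, Edn1 (-0.072 ± 0.027), the endothelin 1 gene, and Fgfr4 (-0.070 ± 0.030), the receptor through which FGF signals curb bile acid synthesis. Fgfr4 stood at -0.017 after GC correction. The highest were the transcription factor gene Klf6 (0.092 ± 0.049), the activin subunit gene Inhba (0.079 ± 0.053) and the Hedgehog pathway gene Gli3 (0.078 ± 0.046). Gli3 read 0.142, 0.076, 0.106, 0.102, -0.103 and 0.115 in tumours 1 to 6, 0.062 in FEAT normal liver and 0.067 in wild-type liver, so only tumour 5 was below 0. With the 1 Mb window the departures of Klf6 and Gli3 were 0.060 and 0.044.

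T cells delete DNA within their antigen receptor loci, so these loci bear on how many such cells a liver sample held. The T cell receptor beta locus on chromosome 6 (97 probes) stood at 0.007 ± 0.031 relative to its flanks in the tumours, 0.007 in FEAT normal liver and 0.001 in wild-type liver, and the T cell receptor gamma locus on chromosome 13 (20 probes) at 0.059 ± 0.036, 0.066 and 0.029 (SD, n = 6). With 100 in place of 200 flanking probes the beta locus stood at -0.014 in the tumours. With 200 flanking probes neither locus was below its flanks in the tumour mean. Single tumours differed: the beta locus stood at -0.055 in tumour 3, against 0.012 to 0.032 in the other tumours. The gamma locus stood at -0.001 in tumour 2, against 0.043 to 0.101 in the others. Noise between neighbouring probes was an SD of 0.320 on chromosome 6 of tumour 3 and 0.237 on chromosome 13 of tumour 2. No error was computed for a locus on a single array. These differences are therefore not read as differing numbers of T cells.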

How the data were processed

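Genomic DNA was hybridised to 2-colour Agilent 244A arrays, with the sample in Cy3 and the reference in Cy5, per the labels' protocols. Per the series' design text, Feature Extraction and CGH analytics 3.4 were used. A scanner file was used for 1 array, that of the wild-type liver, and names Feature Extraction 9.1.3.1, per the file headers. The values deposited for the 8 arrays are log2 ratios, taken as sample to reference; on the 7 arrays without a scanner file here this direction rests on the dyes, per the labels. On the wild-type array, with repeated spots averaged, they correlated at r = -0.9997 with the deposited log10 ratio of the scanner file, which is reference over sample. With that ratio rescaled to log2 and turned, the constant between them was 0.0014. The largest departure of a probe from this constant was 1.14. The deposited intensity columns (processed, mean and background signals) and flags of the wild-type array served alternatives. The number of arrays limits the precision.

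Repeated spots were averaged (235406 rows, 232626 probes) and the autosomal median was subtracted per array, with no loess or quantile step. Deposited autosomal medians ran from -0.06 to 0.10. Segments came from penalised least squares (factor 2, at least 5 probes, values held within 3 noise SDs of a 5-probe running median) and were called at 0.2. Groups were compared in R 4.3.3 by limma 3.58.1, and p-values were adjusted over all features by the Benjamini-Hochberg method (threshold 0.05). They measure only the spread between these samples. Both fits and segments were run on simulated data. The planted shifts were several SDs of the tumours for the fits and past 0.2 for the segments. Shifts as small as those of whole chromosomes here were not planted, so these runs do not bear on them. Python 3.11.15 with numpy 2.4.6 and pandas 2.3.3 was used. Probe sequences are those of the scanner file. Names were matched through a RefSeq table of GRCm38.p6, used for names only.

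The chromosomes, gene lists and rules were chosen with earlier results of these data known. Named genes were up to 3 of each called segment under 3 Mb, and the 3 highest and 3 lowest listed genes per chromosome by window minus chromosome mean, with at least 20 probes. Genes named as members of human 19p, and single FEAT probes, were picked with their values in view. The alternatives were centring, GC correction over 0.5 Mb, dim or outlying probes, medians, bin size, control, each tumour left out, segment settings, window and flank size, and, for the wild-type array, processed signals and normexp with an offset of 50. A further receptor locus is not reported here.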

Additional observations from a re-analysis of the deposited data

Results flagged for a closer look

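Of 52 groups of 6 tumour values examined on these chromosomes, 7 had a highest or lowest tumour farther from the rest than Dixon's critical value for 6 samples; chance alone gives about 1 in 20, and many of the groups share probes. Tumour 5 stood apart on chromosome 6 at -0.118 and on chromosome 10 at -0.141, both relative to the middle autosome; these levels chose the chromosomes, so this restates the choice. Tumour 3 stood apart in the mean of gene-assigned minus other probes on chromosome 10, at 0.021, and at the T cell receptor beta locus, at -0.055 against its flanks. Tumour 4 stood apart at 3 gene windows relative to their chromosome: Mad2l1 at 0.096, Ddit4 at -0.179 and Txnrd1 at -0.121. Tumour 4 was also the array with the highest noise between neighbouring probes, an SD of 0.487; its part in these values was not tested. The 3 genes were named for their extreme mean over the tumours, which the value of tumour 4 helped to set, so nothing is supported by them, and the Mad2l1 mean departure was 0.002 after GC correction.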

How the results depend on the processing

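No paired analysis was possible because the labels carry no replicate numbers shared by the groups. In all 55 alternative fits of chromosomes, bins, distal against proximal parts and gene-assigned probes, limma called 0 features, and the smallest adjusted p was 0.677. The differences of tumours from non-tumour livers were near 0 and several turned sign, none with a call. For chromosome 6 levels the difference was 0.0025 with centring on the mode and 0.00084 with the FEAT normal liver as the control (leaving out a tumour, -0.020 to 0.0064). For chromosome 10 it was -0.0019 centred on chromosomes 2, 5, 8 and 11, -0.0081 with medians and -0.0051 with the wild-type liver as the control (leaving out a tumour, -0.0072 to 0.030). For chromosome 13 it kept its sign (leaving out a tumour, -0.030 to -8.7e-05, the last without tumour 5). Distal minus proximal turned to 0.0010 after GC correction and 0.0014 with the FEAT normal liver as the control on chromosome 6 (leaving out a tumour, -0.0055 to 0.0025), and to 0.00059 after GC correction on chromosome 10 (leaving out a tumour, -0.0070 to 0.0011). Gene-assigned minus other probes turned on chromosome 6 to 0.0015 after GC correction, 0.0031 with medians and 0.0025 with the wild-type liver as the control (leaving out a tumour, -0.0038 to 0.0017), on chromosome 13 to -0.0021 with the FEAT normal liver as the control, and on chromosome 10 it ran from -0.0011 to 0.0069 when a tumour was left out. The turns on leaving out 1 tumour came without tumour 4 for the distal parts, without tumour 1, 2, 4 or 5 for gene-assigned probes of chromosome 6 and without tumour 3 for those of chromosome 10. The causes were not tested. In tumour 5 the level ran from -0.112 to -0.051 on chromosome 6, -0.134 to -0.074 on chromosome 10 and -0.137 to -0.076 on chromosome 13 over the alternatives, and chromosome 10 of tumour 2 from 0.062 to 0.114. Levels of other tumours moved more: chromosomes 6, 10 and 13 of tumour 3 ran from 0.0028 to 0.143, -0.0016 to 0.140 and 0.0009 to 0.142, and those of tumour 4 from -0.049 to 0.087, -0.0068 to 0.132 and -0.058 to 0.064, lowest with medians and highest with centring on the mode. On the wild-type array, the levels of chromosomes 6, 10 and 13 were 0.032, 0.026 and 0.024 from processed signals and 0.019, 0.015 and 0.017 after normexp. Called segments numbered 4 over the 8 arrays, 10 at a threshold of 0.1, 86 with a penalty factor of 1 and 1 with a factor of 4; with a factor of 1, 24 of the 86 were on the wild-type array. Without replicates of either non-tumour liver, and with probe noise up to 0.487, small focal changes are poorly resolved.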
